A study of Mus musculus with 23 samples.

Results

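The genes described here are 44 mouse genes whose products repair DNA, measured by RNA sequencing in 23 melanoma libraries from a study of ultraviolet-induced melanoma. They were taken by symbol from a fixed list covering nucleotide excision repair, DNA ligation, translesion synthesis, mismatch repair, base excision and single-strand break repair, double-strand break repair, the Fanconi pathway and direct reversal. All 44 were found among the 37620 gene identifiers of the deposited count files, and all 44 passed the filter on low counts in every comparison. A further 77 genes of the same pathways were followed as counts. The libraries fall into 4 groups, namely 2 lung metastases, 7 lymph node metastasis libraries and 7 primary melanomas of the HPN strain, and 7 primary melanomas of the HP strain. HPN animals carry Nme1+/- / Nme2+/- and HP animals Nme1wt / Nme2wt, and the labels give no other allele, dose, time or age. Every metastasis is HPN, so no metastasis of the HP strain was compared. The counts of lymph node libraries 7a and 7b, both numbered 7, were added together, which leaves 6 nodes. Library 7a is labelled cervical and 7b inguinal, so the labels do not mark them as repeats of the same node. The other nodes are labelled brachial, cervical or only lymph. Node site thus varied within the group, and its part in the results was not tested. Beyond the numbers in the library titles, the labels do not say which libraries came from separate animals. The p-values here therefore cover only sample-to-sample spread, which may be technical.

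Ultraviolet light joins neighbouring pyrimidines in DNA into bulky lesions. In nucleotide excision repair these are found either anywhere in the genome, by the XPC complex and by the DDB1-DDB2 complex, or at stalled RNA polymerase, by the proteins encoded by Ercc6 and Ercc8; TFIIH then opens the helix, 2 nucleases cut out the damaged strand, and a polymerase and a ligase fill the gap. Lesions that reach the replication fork are passed by translesion polymerases, among them polymerase eta, the product of Polh. Many of the proteins that fill and seal gaps also work at replication forks, so their genes are known to be more active in dividing cells.

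Total gene counts ran from 18870759 to 89481553 per library. Nme1, which like Nme2 has 1 altered copy in HPN animals, averaged 10.5 ± 2.79 CPM (counts scaled to library size) in HPN primaries. It averaged 16.8 ± 7.93 CPM in HP primaries (SD, n = 7 each). Its log2 difference was -0.69 ± 0.27 (SE), with an edgeR adjusted p of 0.951 and an unadjusted p of 0.0242. Nme2 had a log2 difference of -1.02 ± 0.38 (SE), with an edgeR adjusted p of 0.951 and an unadjusted p of 0.0189, but was below 1 CPM in all libraries. The melanocyte list averaged 8.12 to 11.39 on the log2(CPM + 0.5) scale in nodes and 8.99 to 11.66 in HPN primaries, so melanocyte genes were present throughout. The primaries fell into 2 sets by 9 keratinocyte genes: 8 had a list mean of 5.71 to 9.96, 4 of them HPN and 4 HP, and 6 had -0.13 to 2.36, 3 of them HPN and 3 HP. The 7 B cell genes had a list mean of 4.64 to 7.90 in nodes against -0.79 to 0.84 in HPN primaries. Lung 4 held lung epithelium genes at a mean of 9.89, against -0.31 in lung 3. In bulk tissue, fewer cells of a type and less RNA per cell cannot be told apart.

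Among the damage-recognition genes, Ddb1, which encodes the larger DDB subunit and an adaptor of ubiquitin ligases, was by far the most abundant of the 44 on either scale. Its level was 206 to 770 CPM over the 23 libraries, with a mean of 81.4 CPM per kilobase of exon. Ddb2, which encodes the lesion-binding subunit, had a mean of 4.33 CPM per kilobase and a range of 5.67 to 30.2 CPM. Rad23b, whose product stabilises XPC, stood at 23.4 CPM per kilobase, Cetn2, which encodes the third protein of that complex, at 10.8, and Xpc itself at 6.17. The transcription-coupled pair was low, with Ercc6 at 3.15 and Ercc8 at 1.23 CPM per kilobase, the lowest of the 44.

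Of the unwinding and incision genes, Gtf2h1, a TFIIH subunit gene, had the highest level at 34.6 CPM per kilobase, and Gtf2h2, another, had the lowest at 3.88. The 5 steadiest members were the nuclease gene Ercc4, the helicase genes Ercc3 and Ercc2, Trp53bp1 and Ercc1. Their coefficients of variation over the 23 libraries were 13.1% for Ercc4, 13.4% for Ercc3, 14.9% for Ercc2, 16.3% for Trp53bp1, which encodes a double-strand break adaptor, and 17.6% for Ercc1, the partner of Ercc4. The median coefficient over the 44 members was 26.4%, against 35.9% over 15011 genes with a mean of at least 1 CPM. Those genes were not matched to the members in level, so the values do not show that repair genes are steadier.

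The 5 most variable members were Mgmt, Brca1, Lig4, Fancd2 and Lig1, with coefficients of 65.4%, 60.1%, 60.0%, 51.6% and 48.1%. Mgmt, which encodes the protein that removes alkyl groups from guanine, ran from 0.966 CPM in node 4 to 19.4 CPM in HPN primary 5. Brca1, a homologous recombination gene, ran from 23.8 CPM in HPN primary 1 to 218 CPM in node 3. Lig4, the end-joining ligase gene, ran from 10.6 CPM in HPN primary 1 to 82.5 CPM in HP primary 7. Lig1, the replicative ligase gene, had its lowest value of 17.6 CPM in HP primary 4 and its highest of 86.3 CPM in HP primary 7. Within the other groups of repair genes, the highest and lowest levels per kilobase were 18.7 for Xrcc5 and 1.63 for Brca2 in double-strand break repair, 17.8 for Parp1 and 1.65 for Mutyh in base excision repair, 10.4 for Lig1 and 6.29 for Lig4 among ligases, 7.82 for Rev3l and 4.27 for Polk in translesion synthesis, and 9.18 for Msh6 and 2.16 for Pms2 in mismatch repair.

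**Figure D1:**
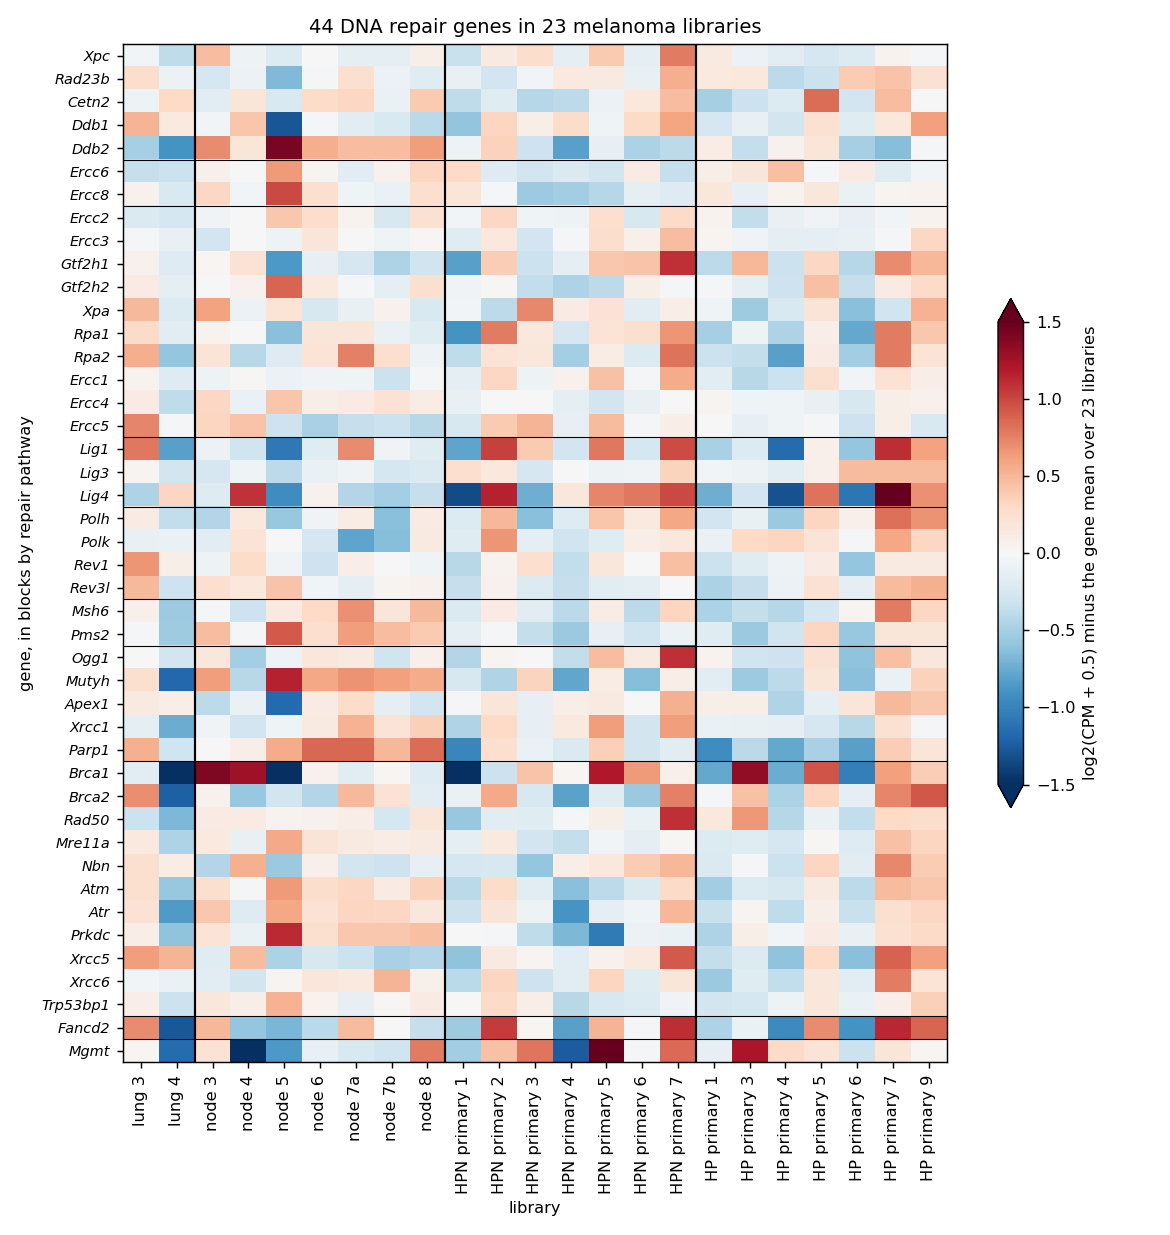
Each row is 1 of the 44 repair genes, in blocks by pathway, and each column 1 of the 23 libraries; colour gives log2(CPM + 0.5) minus the gene's mean over the libraries. The rows of Lig1, Lig4, Brca1, Fancd2 and Mgmt change colour most between libraries, and Ddb2 is red in the node columns.

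Taken over all 14 primaries, the level of many repair genes went with the proliferation level of the tumour; within the sets that the primaries fell into, no gene of any kind passed. Each gene's log2(CPM + 0.5) was correlated over the 14 primaries with the mean of 27 proliferation genes that hold none of the 44. Of the 44 members, 25 passed the permutation test with a positive r and 1 with a negative r at an adjusted p under 0.05; over all 16578 genes tested, 25.2% passed with a positive r and 19.8% with a negative one. The median r was 0.65 for the members and 0.21 for all genes tested. These 14 tumours are not one cloud, however: the 8 tumours high in keratinocyte genes had proliferation means of 3.84 to 4.99 and the 6 low ones 5.37 to 6.10, with no overlap. Within the 8 high tumours, within the 6 low ones and within the 8 metastases, 0% of all genes tested passed the adjusted permutation test, so the 0 members called there is no result about them. In these sets 3, 8 and 7 members had an unadjusted p under 0.05. The share of all genes at that p was not counted, so these numbers are no result about the members either. The members' median r was 0.23, 0.51 and 0.33, and that of all genes was 0.02, 0.06 and 0.04. The smallest p that permutation of 6 samples can give is 0.00278. Of the 25 members with a positive call, 21 had a positive r on both sides and 20 in the metastases as well. These 25 were picked by the pooled r. Of all 44 members, 26 had a positive r on both sides and 24 in the metastases as well. The share of all genes with such signs was not counted, so these counts are no result about the members. The part of the keratinocyte genes in the pooled relation was not tested. The side also goes with the title number: in all 6 numbers that have both an HPN and an HP primary, the 2 tumours fell on the same side. With 1 mean per title number as a replicate block, chosen after seeing the data, 23 members passed the exact permutation test over 8 numbers, where 26.7% of all genes did.

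Fancd2, which encodes the Fanconi protein loaded on DNA at crosslinks and stalled forks, had the highest pooled r. It had a lowest, median and highest value of 20.1, 27.7 and 31.3 CPM in the 6 primaries low in keratinocyte genes, against 6.95, 9.80 and 14.3 CPM in the 8 high ones, and the 2 sets do not overlap. Its r was 0.95 over all 14 (permutation test, adjusted p = 0.000767; rho = 0.93, adjusted p = 0.00121), 0.95 without the 2 tumours farthest from the median, 0.75 within the high side, 0.88 within the low side and 0.87 in metastases. Lig1 had 42.1, 74.3 and 86.3 CPM on the low side, against 17.6, 30.4 and 52.6 CPM on the high side, and these values overlap. Its r was 0.94 over the 14 (permutation test, adjusted p = 0.00106; rho = 0.93, adjusted p = 0.000901), 0.81 and 0.71 within the high and low sides, and 0.99 in metastases. Rpa2, a subunit gene of the protein that coats single-stranded DNA, had r of 0.91 over the 14 (permutation test, adjusted p = 0.000767; rho = 0.88, adjusted p = 0.00191), 0.71 and 0.83 within the sides, and 0.85 in metastases. These 3 genes thus had a positive r of over 0.5 in all 3 sets, as did Rpa1, Gtf2h1, Apex1 and Rad23b. Rad23b did not pass over the 14 primaries. The share of all genes above 0.5 in all 3 sets was not counted.

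The other members of the 5 highest were Xrcc5 and Polh. Xrcc5, which encodes the larger Ku subunit of end joining, had r of 0.91 over the 14 (permutation test, adjusted p = 0.000767; rho = 0.89, adjusted p = 0.00201), 0.72 and 0.83 within the high and low sides, and 0.17 in metastases. Polh had r of 0.90 over the 14 (permutation test, adjusted p = 0.00106; rho = 0.92, adjusted p = 0.000901), 0.49 and 0.94 within the sides, and 0.57 in metastases. Without the 2 tumours farthest from the median, HP primaries 4 and 7, r was 0.90 for Lig1, 0.85 for Rpa2, 0.88 for Xrcc5 and 0.85 for Polh.

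The 3 lowest r were those of Ercc6, Ddb2 and Ercc8, and only Ercc6 passed. Ercc6, which encodes the protein that senses stalled RNA polymerase, had 31.1, 34.7 and 39.0 CPM on the low side, against 32.4, 43.3 and 54.7 CPM on the high side, and the sides overlap. Its r was -0.71 over the 14 (permutation test, adjusted p = 0.0166; rho = -0.58, adjusted p = 0.0679), -0.57 and -0.23 within the high and low sides, and -0.49 in metastases. Without the 2 farthest tumours its r was -0.56 and its adjusted permutation p 0.121, so the call was lost without those tumours; it was also lost by rho and without HP primary 4 alone, at an adjusted p of 0.0863. Ddb2 had r of -0.05 over the 14 and -0.61 and -0.66 within the high and low sides, and Ercc8 had -0.03, -0.50 and 0.19 in the same order; neither passed. By pathway, the calls with a positive r were 7 of 11 double-strand break genes, 5 of 10 unwinding and incision genes, 3 of 5 base excision genes, 3 of 4 translesion genes, 2 of 5 recognition genes, 2 of 3 ligase genes, 2 of 2 mismatch genes, the Fanconi gene and neither of the transcription-coupled pair.

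**Figure D2:**
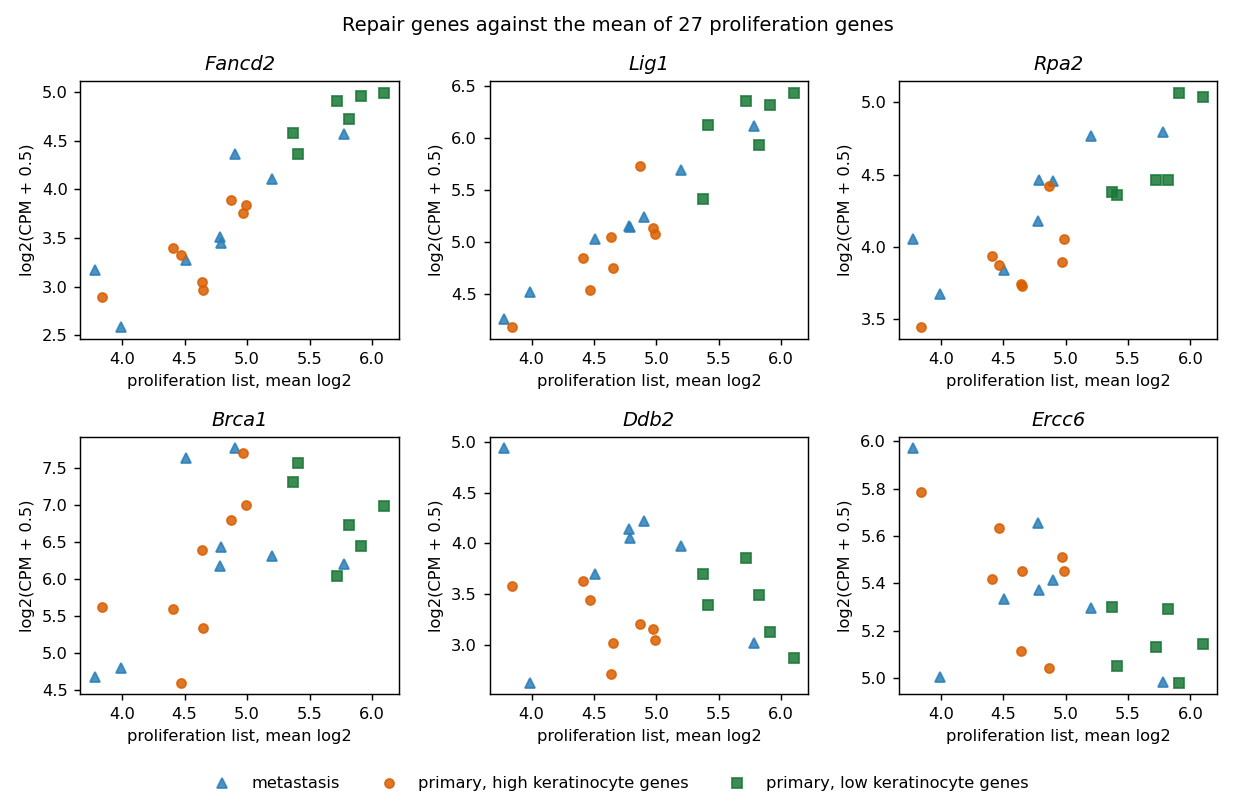
Each panel plots log2(CPM + 0.5) of 1 gene against the mean log2 level of 27 proliferation genes; points are samples, marked as metastases, primaries high in keratinocyte genes and primaries low in them. Fancd2, Lig1 and Rpa2 climb with the list within each set of points as well as between them, while Ercc6 runs the other way over the primaries. Ddb2 falls with the list within each set of primaries but not over all primaries together.

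The promoters of 4 of the 5 highest members have an entry in the RefSeq table used (GRCm38.p6, 300 bases around each start), and they are shown with that of Brca1, which did not pass against the proliferation genes. Capitals mark matches, on either strand, to the E2F-type octamers TTTCCCGC, TTTCGCGC, TTTGCCGC and TTTGGCGC, or to CCAAT, which is ATTGG on the other strand; the motifs do not overlap here. Lig1 has 3 promoter entries and the one with an octamer is shown.
Lig1 promoter, chr7:13278576-13278875, plus strand: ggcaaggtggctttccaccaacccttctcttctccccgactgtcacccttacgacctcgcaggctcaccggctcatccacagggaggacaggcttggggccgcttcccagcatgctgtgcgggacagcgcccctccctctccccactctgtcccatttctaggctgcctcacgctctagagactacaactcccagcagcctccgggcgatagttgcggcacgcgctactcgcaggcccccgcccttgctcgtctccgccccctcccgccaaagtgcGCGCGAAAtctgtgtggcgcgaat
Rpa2 promoter, chr4:132768110-132768409, plus strand: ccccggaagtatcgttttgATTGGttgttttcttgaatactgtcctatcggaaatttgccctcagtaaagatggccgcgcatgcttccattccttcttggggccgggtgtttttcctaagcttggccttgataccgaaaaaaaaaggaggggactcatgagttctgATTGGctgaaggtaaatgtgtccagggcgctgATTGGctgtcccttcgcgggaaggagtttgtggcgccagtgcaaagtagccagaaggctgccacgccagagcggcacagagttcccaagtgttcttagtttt
Xrcc5 promoter, chr1:72307171-72307470, plus strand: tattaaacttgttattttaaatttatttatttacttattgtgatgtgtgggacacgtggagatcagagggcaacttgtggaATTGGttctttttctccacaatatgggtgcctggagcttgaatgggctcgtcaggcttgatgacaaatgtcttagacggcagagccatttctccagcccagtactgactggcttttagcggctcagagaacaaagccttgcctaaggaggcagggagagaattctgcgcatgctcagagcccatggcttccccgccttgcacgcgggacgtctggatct
Polh promoter, chr17:46202592-46202891, minus strand: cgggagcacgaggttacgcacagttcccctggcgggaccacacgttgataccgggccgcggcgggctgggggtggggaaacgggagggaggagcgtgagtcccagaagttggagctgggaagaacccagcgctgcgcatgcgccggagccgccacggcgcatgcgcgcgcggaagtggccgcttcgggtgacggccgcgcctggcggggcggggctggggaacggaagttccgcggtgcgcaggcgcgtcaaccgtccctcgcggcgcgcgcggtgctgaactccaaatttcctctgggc
Brca1 promoter, chr11:101551906-101552205, minus strand: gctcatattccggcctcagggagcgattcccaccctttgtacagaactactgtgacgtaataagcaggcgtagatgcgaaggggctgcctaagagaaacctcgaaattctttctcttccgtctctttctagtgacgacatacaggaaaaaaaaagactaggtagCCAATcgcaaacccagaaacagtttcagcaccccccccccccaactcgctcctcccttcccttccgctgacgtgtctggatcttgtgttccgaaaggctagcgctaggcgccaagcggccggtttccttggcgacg
Octamers of the E2F type occur in the promoters of 4 of the 36 members with an entry, Lig1, Brca2, Msh6 and Xrcc6, which is 9.52% of their 42 promoters, against 2.26% of 32851 mouse promoters. CCAAT occurs in 21 of the 42 member promoters, against 37.4% of all; Rpa2 holds 3 copies, Xrcc5 and Brca1 hold 1 each, and neither Polh nor the Lig1 window shown holds one. A match is only a run of letters, and no factor was measured.

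Brca1 varied apart from its partner gene Brca2, which encodes the protein that loads the recombinase on DNA. The ratio of Brca1 to Brca2 in CPM ran from 1.23 in HPN primary 1 to 14.3 in node 4. HPN primary 5 had 190 CPM of Brca1 and 18.2 CPM of Brca2, whereas HPN primary 7 had 86.7 and 35.3 CPM. Against the proliferation list Brca1 had r of 0.52 over the 14 primaries (permutation test, adjusted p = 0.103; rho = 0.53, adjusted p = 0.103), 0.65 and -0.53 within the high and low sides; Brca2 had 0.78 (permutation test, adjusted p = 0.00698; rho = 0.68, adjusted p = 0.0274), 0.24 and 0.80. Brca1 thus gave no call, and its r differed in sign between the sides. Against the mean of 7 melanocyte genes, a relation looked for after the values were seen, 16 of the 44 members passed over the 14 primaries with a positive r and 1 with a negative r, where 24.3% of 16578 genes passed with a positive r. Brca1 was among them, with r = 0.79, but its adjusted permutation p was 0.0517 by rho and 0.132 without the 2 farthest tumours, and its r was 0.24 on the low side. Brca2 did not pass.

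**Figure D3:**
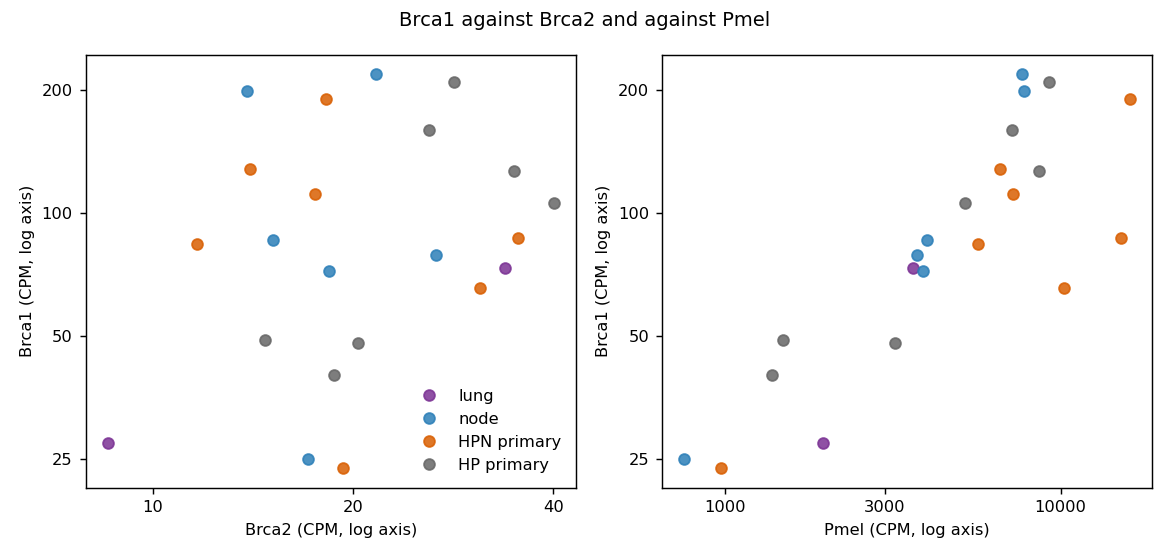
Brca1 in CPM is plotted on log axes against Brca2 on the left and against the melanosome gene Pmel on the right; each point is 1 sample, coloured by group. Brca1 spreads over 23.8 to 218 CPM with no clear line against Brca2, whereas the points of lowest Pmel are also the points of lowest Brca1.

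Repair genes did not differ detectably between HPN and HP primaries. None of the 44 members passed an adjusted p of 0.05 in edgeR, where 0% of all 16578 genes tested passed and 477 had an unadjusted p under 0.05. No member had an unadjusted p under 0.05 in edgeR, against 1 in DESeq2 and 4 in limma voom, which also called none. Over all 16578 genes, 851 had such a p in DESeq2 and 2306 in limma voom. The log2 differences of the members ran from -0.34 to 0.32 with a median of -0.05, the median of all genes tested being -0.05. None of the 77 other repair genes passed, and 1 had an unadjusted p under 0.05. A p that misses the threshold does not show that the strains were alike.

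The 3 members with the smallest p in each direction were Prkdc, Ercc8 and Rev3l, with negative differences, and Ercc5, Xrcc1 and Xpc, with positive ones, and none passed. Prkdc, the catalytic subunit gene of the end-joining kinase, had 31.98, 62.9 and 67.2 CPM as lowest, median and highest in HPN primaries, against 48.6, 71.4 and 82.2 CPM in HP primaries. Its log2 difference was -0.34 ± 0.17 (SE; edgeR adjusted p = 0.951), and the groups overlap. Ercc8 had a log2 difference of -0.29 ± 0.16 and Rev3l, which encodes the catalytic part of polymerase zeta, -0.24 ± 0.14. Ercc5, the nuclease gene for the cut 3′ of the lesion, averaged 43.6 ± 9.27 CPM in HPN primaries and 36.0 ± 3.43 CPM in HP primaries (SD, n = 7 each), a log2 difference of 0.25 ± 0.13. Xrcc1, a scaffold gene of single-strand break repair, had 0.25 ± 0.16 and Xpc 0.23 ± 0.15. The groups overlap for each of them, and each had the same edgeR adjusted p of 0.951.

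In the lymph node metastases, 4 of the 44 members were higher than in HPN primaries and none lower, where 12.7% of 19152 genes tested were higher and 9.81% lower. The 4 are 9.09% of the members, a share near that of all genes. The 4 were Ddb2, Pms2, Prkdc and Parp1. The median log2 difference of the members was -0.08, the same as the median of all genes tested, and 19 of 44 were positive.

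Ddb2 (ENSMUSG00000002109) stood at 18.2, 12.4, 30.2, 16.1, 15.2 and 17.2 CPM in nodes 3, 4, 5, 6, 7 and 8. In HPN primaries its lowest, median and highest values were 6.03, 8.69 and 14 CPM. Every node but node 4 lay above every HPN primary. Its log2 difference was 0.96 ± 0.23 (SE; edgeR adjusted p = 0.0104), and with the title number as a block the adjusted p was 0.0172. Acp2, a gene on the opposite strand that overlaps 23.83% of the Ddb2 exons, had a log2 difference of 0.28 ± 0.18 (edgeR adjusted p = 0.264).

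Pms2 (ENSMUSG00000079109), which encodes a subunit of the mismatch repair nuclease, stood at 23.3, 16.6, 32.1, 20.1, 24.8 and 22.2 CPM in nodes 3, 4, 5, 6, 7 and 8. In HPN primaries its lowest, median and highest values were 11.3, 15.2 and 16.4 CPM, so the groups do not overlap. Its log2 difference was 0.67 ± 0.17 (SE; edgeR adjusted p = 0.0107; 0.0363 with the block). Rsph10b, a gene on the same strand that overlaps 1.05% of the Pms2 exons, had a log2 difference of 1.59 ± 0.52 (edgeR adjusted p = 0.0398). Gm42421, also on the same strand, overlaps 4.85% of the Pms2 exons and was not among the counted genes, so its level is not known.

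Prkdc (ENSMUSG00000022672) had 63.1, 84.5 and 147 CPM as lowest, median and highest in nodes, against 31.98, 62.9 and 67.2 CPM in HPN primaries. The highest node was node 5, and the groups overlap at node 4. Its log2 difference was 0.72 ± 0.22 (SE; edgeR adjusted p = 0.0320), but with the title number as a block the adjusted p was 0.114. It also lost its call, at adjusted p-values up to 0.0859, when any of HPN primaries 3, 4 and 5 or nodes 5, 7 and 8 was left out. Parp1 (ENSMUSG00000026496), whose product binds DNA breaks and builds poly(ADP-ribose), had 88.3, 136 and 160 CPM in nodes, against 44.2, 78.9 and 113 CPM in HPN primaries. Its log2 difference was 0.64 ± 0.21 (SE; edgeR adjusted p = 0.0428), with an adjusted p of 0.148 with the block; the call was lost on leaving out any of HPN primaries 1, 3, 4, 6 and 7 or nodes 5, 6, 7 and 8, at adjusted p-values up to 0.0967.

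**Figure D4:**
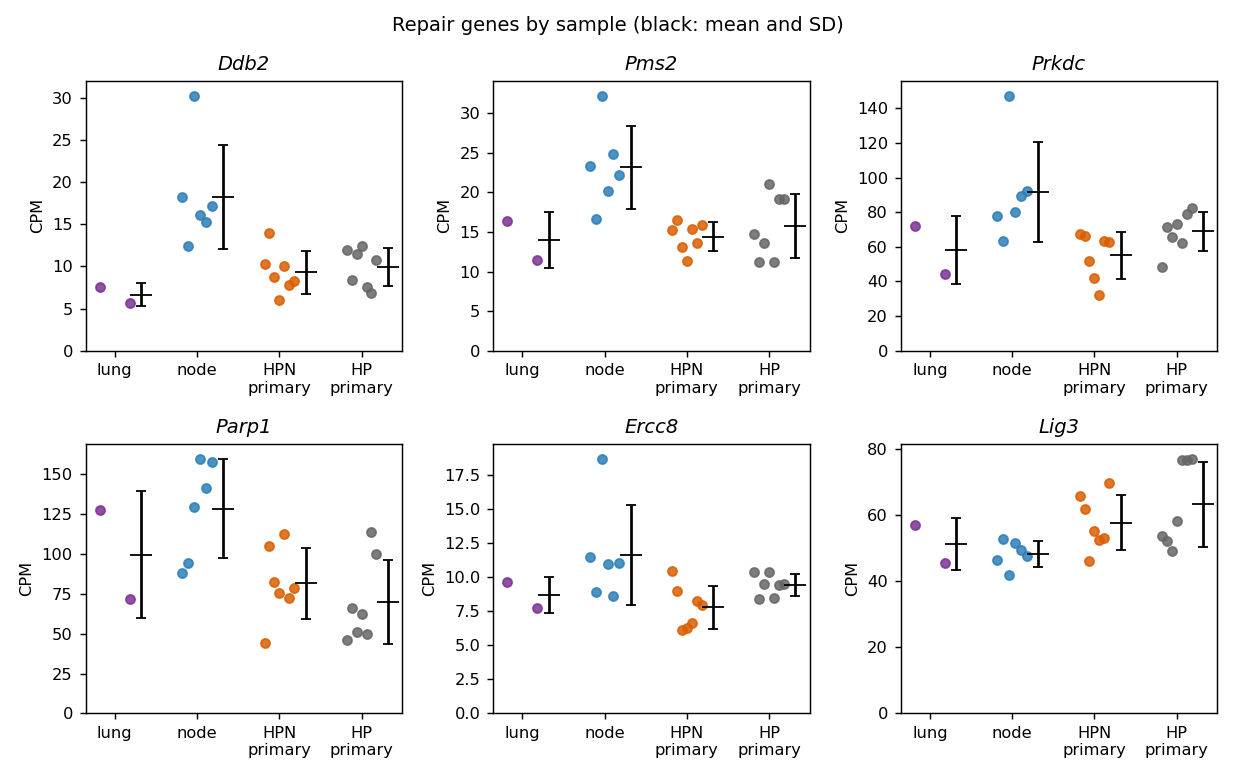
CPM of 6 repair genes by sample in lung metastases, nodes, HPN primaries and HP primaries, with the mean and SD of each group in black. Ddb2 and Pms2 are higher in nodes than in HPN primaries, and node 5 is the highest point for Ddb2, Pms2, Prkdc and Ercc8.

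The nodes also differed from the primaries in their other cells. All 7 B cell genes and all 7 T cell genes were higher in nodes, and all 9 keratinocyte genes and all 5 skeletal muscle genes were lower. Of the macrophage genes 2 of 6 were higher, with list means of 5.08 to 6.87 in nodes against 2.58 to 5.69 in HPN primaries, and of the endothelium genes 2 of 4, with 5.27 to 6.72 against 4.52 to 5.64. The summed B cell genes were 179 to 1740 CPM in nodes, against 0.612 to 9.58 CPM in HPN primaries, and none of the 7 was at 0 in any node. Node 5, the node with the most Ddb2, Pms2 and Prkdc, had the highest B cell mean of 7.90 and the lowest melanocyte mean of 8.12; node 4, with the lowest Ddb2, Pms2 and Prkdc, had the lowest B cell mean of 4.64 and the highest melanocyte mean of 11.39. Parp1, the other member called, did not keep this order. It stood at 88.29, 94.4, 129.7, 159.6, 141.5 and 157.7 CPM in nodes 3, 4, 5, 6, 7 and 8. Node 3 had more Ddb2, at 18.2 CPM, than nodes 6, 7 and 8, with a lower B cell mean of 5.63 against 7.36, 7.0 and 7.4. The part of lymphoid cells in these results was not tested. Without node 5 the log2 differences were 0.76 for Ddb2 and 0.56 for Pms2, and both kept their calls.

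Against the 3 HPN primaries low in keratinocyte genes, 2, 5 and 7, a comparison chosen after seeing the data, the calls were other genes. In it 5 members were lower in nodes and none higher, where 10.3% of 18265 genes were lower and 14.9% higher. Lig1 ran from 18.6 to 51.4 CPM in nodes, against 69.4 to 81.4 CPM in those 3 primaries, a log2 difference of -1.13 ± 0.32 (SE; edgeR adjusted p = 0.0297). Gtf2h1 had a log2 difference of -0.85 ± 0.23 (edgeR adjusted p = 0.0226), Polh -0.65 ± 0.18 (0.0282), Rpa1, the large single-strand binding subunit gene, -0.63 ± 0.19 (0.0373) and Ercc1 -0.51 ± 0.14 (0.0253). The 4 members called against all HPN primaries did not pass here: the log2 difference was 0.77 for Ddb2 (edgeR adjusted p = 0.0869), 0.56 for Pms2 (0.0918), 0.79 for Prkdc (0.0886) and 0.38 for Parp1 (0.270). The proliferation mean was 3.78 to 5.20 in nodes, against 5.72, 5.41 and 5.91 in HPN primaries 2, 5 and 7. The part of proliferation in these calls was not tested.

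In the other direction, the members with the smallest p against all HPN primaries were Lig3, Apex1 and Ercc1, none of which passed. Lig3, the single-strand break ligase gene, averaged 48.3 ± 3.93 CPM in nodes (n = 6) and 57.8 ± 8.33 CPM in HPN primaries (SD, n = 7), a log2 difference of -0.28 ± 0.11 (edgeR adjusted p = 0.0787). Apex1, the abasic-site nuclease gene, had -0.40 ± 0.18 (adjusted p = 0.121); 61.67% of its exon bases overlap Pip4p1 on the opposite strand, whose log2 difference was 0.31 ± 0.10. Ercc8, at 0.56 ± 0.22 (adjusted p = 0.0746), missed the threshold as well.

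Of the 77 other repair genes, 7 were higher in nodes and 1 lower, where 12.7% and 9.81% of all genes were; the 7 are 9.09%, so this is no result about repair genes as a group. The 4 with the smallest p were Neil1 and Mbd4, base excision glycosylase genes, and Poli and Primpol, genes of a translesion polymerase and of a primase that restarts forks. Neil1 had 8.67, 18.6 and 33.9 CPM as lowest, median and highest in nodes, against 5.01, 7.49 and 9.001 CPM in HPN primaries, a log2 difference of 1.51 ± 0.30 (SE; edgeR adjusted p = 0.00315; 0.0607 with the block). The log2 differences were 1.21 ± 0.27 for Mbd4, 0.96 ± 0.21 for Poli and 0.86 ± 0.21 for Primpol. The 1 lower gene was Gtf2h5, which encodes the smallest TFIIH subunit, at -0.40 ± 0.13 (edgeR adjusted p = 0.0390; 0.147 with the block). With the title number as a block, 2 of the 77 passed, Mbd4 and Poli, where 6.65% of all genes did.

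**Figure D5:**
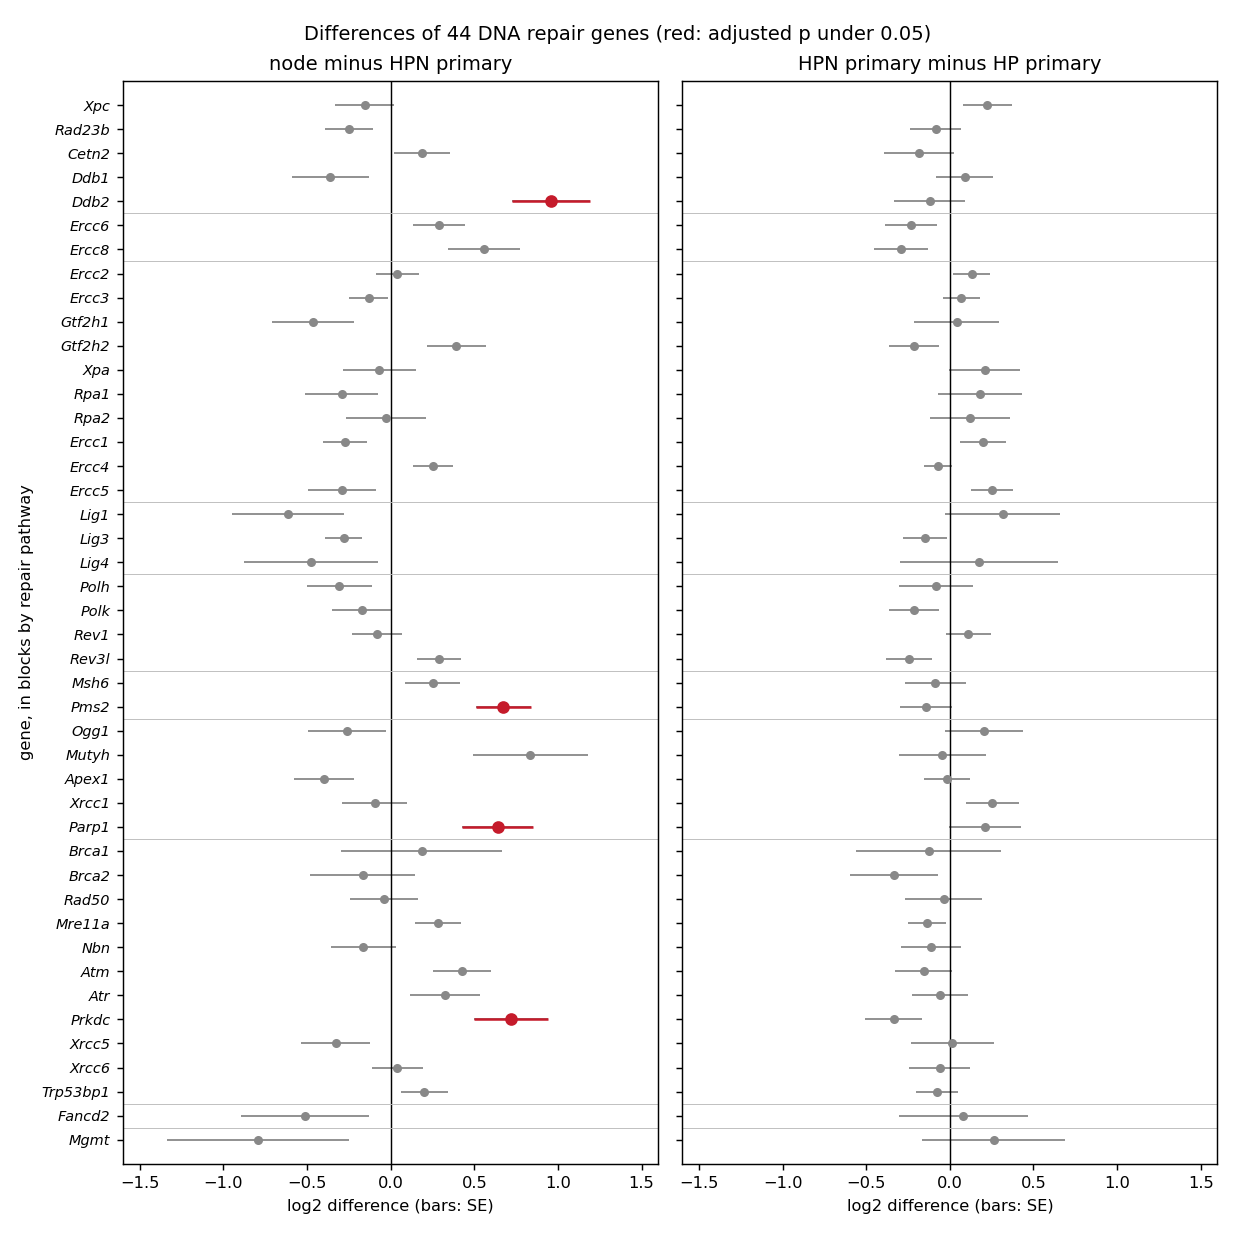
Log2 differences with SE of the 44 members between nodes and HPN primaries on the left and between HPN and HP primaries on the right; red points passed an adjusted p of 0.05. The 4 red points are Ddb2, Pms2, Parp1 and Prkdc in the node panel, and the genotype panel has none.

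In the 2 lung metastases no member passed against the HPN primaries in edgeR, where 0.266% of 19152 genes did. No member had an unadjusted p under 0.05 in edgeR, and 1 had in each of DESeq2 and limma voom, which called none. Over all genes, 1394 had such a p in edgeR, 1963 in DESeq2 and 651 in limma voom. The members' median log2 difference was -0.10, against -0.06 for all genes, and it was -0.31 without lung 3 and 0.18 without lung 4. Xrcc1 had 27.3 and 17.6 CPM in lungs 3 and 4, against 21.8, 33.1 and 46.6 CPM as lowest, median and highest in HPN primaries, a log2 difference of -0.59 ± 0.29 (SE; edgeR adjusted p = 0.707). Rad50, the break-tethering gene, had -0.60 ± 0.31, Ercc2 -0.32 ± 0.19, Rev1, a translesion scaffold gene, 0.36 ± 0.21, Rev3l 0.30 ± 0.19 and Xrcc5 0.44 ± 0.29. The 2 lungs were far apart: lung 3 had 69.1 CPM of Lig1 and 23.1 CPM of Fancd2, and lung 4 had 22.5 and 5.50 CPM, with proliferation means of 5.78 and 3.99. None of the 77 other repair genes passed either, and 1 had an unadjusted p under 0.05.

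Between the 2 kinds of metastasis, Ddb2 was the 1 member that differed, where 5.04% of all genes tested did and 3.09% were lower in lungs. Its values were 7.58 and 5.67 CPM in lungs 3 and 4, against 12.4 to 30.2 CPM in the 6 nodes, and the groups do not overlap. The log2 difference was -1.45 ± 0.38 (SE; edgeR adjusted p = 0.0432). The call was lost with the title number as a block (edgeR adjusted p = 0.215), where 0% of all genes passed, so that loss is no result about Ddb2. It was also lost on leaving out any single node except node 4, where 0.725 to 4.22% of all genes passed. Leaving out a lung leaves 1 lung, so calls in those fits are not read here. Pms2, with a log2 difference of -0.72 ± 0.25, and Xrcc5, with 0.77 ± 0.29, did not pass, with edgeR adjusted p-values of 0.107 and 0.126. Of the 77 other genes, Poli, Neil1 and Parp2, a gene of a second poly(ADP-ribose) polymerase, were lower in lungs by log2 differences of -1.30 ± 0.33, -1.84 ± 0.49 and -0.79 ± 0.22, and Gtf2h5 was higher at 0.71 ± 0.18. None of these 4 passed with the block, where 0% of all genes did, so that is no result about them. With single nodes left out, Poli and Neil1 kept the call only without node 3 or node 4. Parp2 and Gtf2h5 kept it only without node 4. The B cell list mean was -0.44 and 1.04 in lungs 3 and 4, against 4.64 to 7.90 in nodes; its part in these results was not tested. The lung and node comparisons share the HPN primaries and the node libraries, so their values are not independent.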

How the data were processed

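Per the labels' protocols, strand-specific libraries were made from total RNA of mouse melanomas. The submitters' processing notes name bcl2fastq 1.8.4, STAR 2.5.3a and the build mm9; the counter, its strand setting and its gene models were not given in the sources used here, so reads of overlapping genes cannot be told apart. Each of the 23 deposited files holds raw read counts by Ensembl gene identifier for 1 library. Summary entries outside genes were kept out of library sizes and amounted to 25.3 to 66.1% of reads placed once. Gene symbols came from GENCODE vM21 (87.45% of 37620 identifiers), promoters from RefSeq GRCm38.p6.

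The primaries (14) and the HPN samples (15, nodes 7a and 7b summed) were fitted separately with edgeR 4.0.16 in R 4.3.3 (filterByExpr, TMM, robust quasi-likelihood test, Benjamini-Hochberg adjustment over all genes tested, threshold 0.05), and checked on simulated data. CPM are TMM-scaled; group values are mean ± SD over samples. Correlations used 100000 permutations in Python 3.11.15. Alternatives were DESeq2 1.42.0, limma 3.58.1 voom, other filters, scalings and sample sets, the title number as a block, and each library left out. Title numbers were read as animals among HPN tumours; same-numbered deviations correlated at -0.241 to 0.435 there and at 0.104 to 0.661 between the strains' primaries, over 0.1 in all 6 pairs. No 2 libraries were alike within counting noise: the most similar pair had a chi-square per degree of freedom of 108. Named were all members passing a test, the 3 with the smallest p each way, up to 4 other repair genes each way, the highest and lowest level per pathway, the 5 most and least variable members, and the 5 highest and 3 lowest correlations. The members and lists were chosen with earlier results of these data known.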

Additional observations from a re-analysis of the deposited data

Results flagged for a closer look

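Single samples stood apart from the rest of their group for 13 members, 14 times among 132 sets of 4 or more samples. The cut-off gives about 1 in 20 for independent, normally spread values, which CPM of genes from shared libraries need not be. The rule was run on the members only. No share over all genes stands beside these counts or the counts of highest samples, so they are no result about repair genes. Node 5 stood above the other nodes in this way for 5 of them, and was the highest node for 14 of the 44 members. It had 30.2 CPM of Ddb2 against 12.4 to 18.2 CPM in the other nodes, 18.7 CPM of Ercc8 against 8.66 to 11.5, 32.7 CPM of Gtf2h2 against 16.6 to 20.9, 147 CPM of Prkdc against 63.1 to 92.3, and 90.01 CPM of Trp53bp1 against 60.4 to 70.3. Node 5 also had the lowest total of gene counts, 18870759, and the largest share of uniquely placed reads outside genes, 66.1%. Node 4 had 59.3 CPM of Lig4 against 14.3 to 28.9 in the other nodes, and 62.7 CPM of Xrcc5 against 32.2 to 39.8.

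HPN primary 7 stood apart for 4 members, and was the highest HPN primary for 21 of the 44, again without a share over all genes. It had 33.0 CPM of Rpa2 against 12.9 to 21.6 in the others, 31.0 CPM of Apex1 against 19.6 to 24.2, 112 CPM of Rad50 against 35.0 to 55.4, and 85.4 CPM of Xrcc5 against 29.4 to 49.8. HPN primary 2 had 36.8 CPM of Polk against 18.7 to 25.8. HP primary 9 had 45.9 CPM of Ercc3 against 33.2 to 38.1 in the other HP primaries, and HP primary 3 had 12.7 CPM of Mgmt against 4.06 to 6.44.

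Differences between lungs and nodes were tested directly and passed for 5 genes in edgeR, 1 of the 44 members and 4 of the 77 others. Of all 19152 genes tested, 5.04% passed, so the 5 are no result about repair genes as a group. The log2 difference was -1.45 for Ddb2 (adjusted p = 0.0432), 0.71 for Gtf2h5 (0.0416), -1.30 for Poli (0.0406), -1.84 for Neil1 (0.0455) and -0.79 for Parp2 (0.0483). None of the 5 passed with the title number as a block, where 0% of all genes did, so that is no result about the 5.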

How the results depend on the processing

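The genotype and lung-against-primary counts stayed at 0 members and 0 other repair genes under every alternative run. For nodes against HPN primaries, 22.5% of all genes passed, 30% with DESeq2, 34% with voom and 6.65% with the block. In 8 of the 23 libraries the summary entries counted reads of too low alignment quality, called low-quality reads here. With their presence as a term the share was 16.8%, and 8.19% in libraries without such reads. It was 14.4% with title numbers 3 to 7 and 14.5 to 28.3% with 1 library left out. The 4 members became 9 with limma voom, 2 with the title number as a replicate block, 2 with low-quality reads as a term, 0 in libraries without such reads and 2 with title numbers 3 to 7 alone, and ranged from 2 to 6 when 1 library was left out; Ddb2 and Pms2 passed in all but the libraries without low-quality reads and the comparison with keratinocyte-low primaries. The 8 other repair genes became 14 with DESeq2, 14 with voom, 2 with the block, 5 with the low-quality term, 1 without such libraries, 3 with numbers 3 to 7, and 4 to 13 with 1 library left out. For lungs against nodes, 5.04% of all genes passed, 12.9% with DESeq2, 6.3% with voom, 1.37% with the low-quality term, 2.82% with numbers 3 to 7, 3.3% without a filter, 0% with the block or without such libraries, and 0 to 10.6% with 1 library left out. The 1 member became 2 with DESeq2, 2 with voom and 0 with the block, the low-quality term, the libraries without such reads or numbers 3 to 7, and 0 to 3 with 1 library left out; the 4 other genes became 8 with DESeq2, 1 without a filter, 0 with the block and those other 3 settings, and 0 to 8 with 1 left out. The proliferation test called 45% of all genes over the 14 primaries, 2.82% in HP primaries alone, 22.5% without low-quality reads, 37.3 to 45.1% with 1 library left out and 0% in HPN primaries alone, either side or the metastases. The 26 member calls became 4 in HP primaries alone, 0 in HPN primaries alone, 9 in primaries without low-quality reads, 0 within either keratinocyte side or the metastases, by r or rho, and 23 to 27 with 1 library left out. In HPN primaries alone 24 members had an unadjusted permutation p under 0.05. The share of all genes at that p was not counted, so the 24 are no result about the members. These subsets hold 6 to 9 samples. The replicate block changed no repair gene's call in the genotype or lung-against-primary comparison; over all genes, 1 passed with it against 0 without in the first, and 0 against 51 in the second. With 1 mean per title number as a replicate block, 23 members passed for proliferation, and r was 0.24 for Ddb2 and 0.192 for Ercc8. The cause of these moves was not tested.

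Among named genes, the lung difference of Rev3l was -0.12 without lung 3, and ran from -0.12 to 0.65 with 1 library left out. The r of Ddb2 with proliferation was 0.33 without the 2 farthest tumours, 0.41 in HPN primaries and 0.20 without low-quality reads, and -0.22 to 0.14 with 1 left out; that of Ercc8 was 0.036 in HP and 0.04 in HPN primaries alone, 0.19 on the low side, and -0.145 to 0.083 with 1 left out. Without the 2 farthest, r in metastases was -0.85 for Xrcc5, 0.51 for Ercc8, 0.87 for Ddb2 and 0.59 for Ercc6, and -0.17 for Polh on the high side. The keratinocyte sides, the metastases alone, numbers 3 to 7 and the means per title number were chosen after seeing the data.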

Other observations

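Brca1 was not the member closest to the melanocyte genes over the 14 primaries: Lig4 had r = 0.91, Rpa1 0.89 and Parp1 0.87. For Brca1, r was 0.79 (permutation test, adjusted p = 0.00515) and rho 0.61 (permutation test, adjusted p = 0.0517). Without the 2 tumours farthest from the median, HPN primary 1 and HP primary 6, r was 0.56 with an adjusted permutation p of 0.132, so the call was lost without them. Its r was 0.86 in the 8 primaries high in keratinocyte genes, 0.24 in the 6 low ones and 0.65 in the 8 metastases, and none of these passed the adjustment. For Brca2 the same values were 0.33 over the 14, -0.36, -0.66 and -0.08. Node 3 and node 4 had 218 and 199 CPM of Brca1 beside 7697 and 7769 CPM of the melanosome gene Pmel, and node 5 had 25.1 CPM beside 756 CPM.

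Ranked by r with Brca1 over the 14 primaries among 12519 named genes of at least 3 CPM there, none had an adjusted permutation p under 0.05, and 3748 had an unadjusted one under 0.05. The first was Gm829, with r = 0.94 over all 14, 0.97 and 0.93 within the high and low keratinocyte sides, and 0.39 in metastases. Lyplal1 was second with 0.90, 0.88, 0.87 and 0.28 in the same order. The third, Rab38, which encodes a trafficking protein of melanosomes, had 0.89, 0.93, 0.57 and 0.41. The 7 melanocyte genes ranked far apart. Tyrp1, a melanin synthesis enzyme gene, was at rank 8 with 0.88, 0.93, 0.72 and 0.65, Pmel at rank 37 with 0.82, 0.94, 0.05 and 0.94, Dct at 137 with 0.78, and Mitf at 497 with 0.71, 0.88, 0.06 and 0.59. Sox10 was at rank 2077 with 0.56, Tyr at 2141 with 0.55 and Mlana at 7026 with 0.14. Fancd2 was at rank 2620 with 0.51, and Brca2 at rank 6163 with 0.23. The Brca1 promoter shown above holds neither CACGTG nor CATGTG, letters present in 20.4% of all promoters of that length and in 31.0% of member promoters. The part of tumour cell content in these values was not tested.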
